A study of Mus musculus with 12 samples.

Results

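Haemoglobin and red cell transcripts were followed in mouse scars that were stretched or left unstretched, with and without *Tem1*. The genes were the alpha globins *Hba-a1* and *Hba-a2*, the beta globins *Hbb-bs* and *Hbb-bt*, the erythroid haem synthesis gene *Alas2* and the anion exchanger gene *Slc4a1*. They were found by symbol, and all 6 were present among the 35976 genes listed in each count file. All 6 also passed the filter on low counts that left 18853 genes for testing.

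The 4 combinations of genotype and treatment were sequenced, each from 3 male mice aged 8 to 12 weeks, in a C57BL/6J background. A wound of 1.5 cm was made in the back skin of every mouse, and after 6 days it received a plastic device, the same in all groups. Mice of the traction groups had this device lengthened daily by 1 mm until 8 mm was reached, whereas in the sham groups it stayed at its first length. *Tem1*WT/WT mice carried the normal gene, and *Tem1*lacZ/lacZ mice carried *lacZ* in place of the exon of *Tem1* in every cell, so that this line is a global deficiency and not a deletion in fibroblasts alone. RNA came from a part of each scar with its margins trimmed, and the tissue was bulk skin that held blood, vessels and hair follicles together. The 12 libraries held 41536788 to 64644293 counts. *Cd248*, the symbol of *Tem1* in the files, had 3883 to 16413 counts in each *Tem1*WT/WT library and 0 to 13 in each *Tem1*lacZ/lacZ library. Levels are given as CPM, the counts of a gene scaled to a common library size with TMM factors, differences are log2 fold changes with standard error (SE) from edgeR's quasi-likelihood model, and a gene was called changed when its Benjamini-Hochberg adjusted p over all 18853 genes was below 0.05.

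Haemoglobin carries oxygen in red cells as a tetramer of alpha and beta chains, each holding a haem group. *Alas2* makes the enzyme of the first and limiting step of haem synthesis in the red cell line, whereas *Alas1* serves other tissues. *Slc4a1* encodes band 3, the chloride and bicarbonate exchanger that also anchors the membrane to the spectrin skeleton beneath it. Mature red cells of mammals have no nucleus, but young ones, the reticulocytes, still contain globin, *Alas2* and band 3 mRNA. Samples of skin hold these transcripts through the blood in their vessels, and low globin expression in other cell types is also known.

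The alpha globins lie on the plus strand of chromosome 11 of GRCm38, *Hba-a1* at chr11:32283511-32284465 and *Hba-a2* at chr11:32296489-32297298. The adult beta globins of the C57BL/6 haplotype lie on the minus strand of chromosome 7, *Hbb-bs* at chr7:103826534-103828096 and *Hbb-bt* at chr7:103812524-103813996. Each of these 4 genes has 3 exons in its main GENCODE transcript. *Alas2* lies on the plus strand at chrX:150547375-150570638 with 11 exons, and *Slc4a1* on the minus strand at chr11:102348824-102366203 with 20 exons. *Alas2* overlaps *Apex2*, a protein-coding gene, and *Mir3620*, a microRNA gene, both on the opposite strand. The libraries were stranded, but the strand setting of the counting was not given in the sources used here, so reads of *Alas2* and *Apex2* may not be fully separated.

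The 2 copies of each chain are so alike that their reads can be hard to assign. The 426 coding bases of *Hba-a1* and *Hba-a2* differed at 1 position, and so did the 441 coding bases of *Hbb-bs* and *Hbb-bt*. The stretch around each of these positions is shown on the coding strand, with the base that differs in capitals, because it is the only coding letter that tells the copies apart. It is C381T for the alpha copies and C417T for the beta copies, counted from 1 at the first base of the start codon, with the base of the first copy named first.
*Hba-a1*, chr11:32284313-32284373: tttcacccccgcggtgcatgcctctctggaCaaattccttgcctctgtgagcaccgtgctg
*Hba-a2*, chr11:32297130-32297190: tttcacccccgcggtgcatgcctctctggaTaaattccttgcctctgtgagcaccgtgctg
*Hbb-bs*, chr7:103826668-103826722: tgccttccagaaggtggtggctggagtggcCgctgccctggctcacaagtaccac
*Hbb-bt*, chr7:103812659-103812713: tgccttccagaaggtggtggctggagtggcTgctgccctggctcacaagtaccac

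Of all 150-base windows in the main transcript, each as long as a sequenced read end, 48.4% for *Hba-a1* and 65.7% for *Hba-a2* were also found in the other copy. The shares were 58.7% for *Hbb-bs* and 50.7% for *Hbb-bt*. How reads that fit both copies were counted is not given in the sources used here, so the level of a single copy is uncertain, and the sum of both copies is given for each comparison.

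The promoters of the globins and *Alas2* are described because these 5 of the 6 genes were found by symbol among the promoters, whereas *Slc4a1* was not. Each is the 250 bases before the RefSeq start in GRCm38.p6, written 5′ to 3′ on the strand of the gene. Capitals mark matches, on either strand, to AGATAA or TGATAA (bound by GATA factors), CCNCNCCC (bound by KLF1), CCAAT and TATAA.
*Hba-a1*, chr11:32283422-32283671: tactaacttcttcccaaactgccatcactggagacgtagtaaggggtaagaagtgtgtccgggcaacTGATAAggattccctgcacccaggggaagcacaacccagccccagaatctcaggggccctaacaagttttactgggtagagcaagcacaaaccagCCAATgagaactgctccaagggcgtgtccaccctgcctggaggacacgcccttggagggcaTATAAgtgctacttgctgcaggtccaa
*Hbb-bs*, chr7:103827929-103828178: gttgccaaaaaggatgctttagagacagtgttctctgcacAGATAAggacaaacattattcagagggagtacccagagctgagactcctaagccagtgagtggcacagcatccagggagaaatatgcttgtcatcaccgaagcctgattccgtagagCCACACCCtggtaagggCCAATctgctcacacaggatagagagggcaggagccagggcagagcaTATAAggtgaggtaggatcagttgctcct
*Hbb-bt*, chr7:103813924-103814173: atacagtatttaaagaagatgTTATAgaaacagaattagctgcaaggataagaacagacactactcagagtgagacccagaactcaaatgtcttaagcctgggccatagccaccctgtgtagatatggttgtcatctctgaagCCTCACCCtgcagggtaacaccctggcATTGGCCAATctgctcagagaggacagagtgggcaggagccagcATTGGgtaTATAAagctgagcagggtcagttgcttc
*Alas2*, chrX:150547167-150547416: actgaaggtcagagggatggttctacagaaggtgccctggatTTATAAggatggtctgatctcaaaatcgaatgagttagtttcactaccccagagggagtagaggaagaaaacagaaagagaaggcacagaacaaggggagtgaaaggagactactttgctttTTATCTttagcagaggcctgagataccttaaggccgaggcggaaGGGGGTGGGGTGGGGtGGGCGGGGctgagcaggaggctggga

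The promoter of *Hba-a2* shared an unbroken run of 247 bases with that of *Hba-a1* and is therefore not shown. TATAA stood 27 to 30 bases before the start of each of the 4 globin genes, and CCAAT stood 75 to 91 bases before it. The KLF1 letters were found in *Hbb-bs* and *Hbb-bt* at 93 and 107 bases before the start and, on the opposite strand, in 4 partly overlapping matches in *Alas2*. In TTATAA of *Alas2* the TATAA matches of both strands overlap. Of 32851 RefSeq promoters of the same length, AGATAA was found in 9.99%, TGATAA in 7.94%, CCNCNCCC in 45.9%, CCAAT in 33.8% and TATAA in 22.8%, so these matches are common and describe the sequence only.

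The first question was how much of each transcript the scars held. Per kilobase of exon, the mean level over all 12 libraries was 74.2 CPM for *Hbb-bs*, 73.7 for *Hba-a1*, 40.0 for *Hbb-bt*, 6.996 for *Hba-a2*, 6.02 for *Alas2* and 1.48 for *Slc4a1*. The ranges of *Hbb-bs* (45.0 to 135) and *Hba-a1* (45.2 to 120) lay on top of each other, and those of *Hba-a2* (3.51 to 13.1) and *Alas2* (4.03 to 10.9) overlapped as well. The 4 globin genes together took only 0.0100% to 0.0221% of the counts of a library. *Hba-a2* made up 5.04% to 9.73% of the alpha globin counts. *Hbb-bt* made up 27.8% to 35.8% of the beta globin counts in 10 libraries, 36.5% in *Tem1*WT/WT sham replicate 2 and 48.7% in *Tem1*WT/WT sham replicate 1. The 95% Wilson intervals of the last 2 shares, 35.1% to 37.9% and 47.0% to 50.4%, cover counting error only and did not overlap.

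Several other red cell transcripts were at or near 0. The embryonic and theta globins *Hba-x*, *Hbb-y*, *Hbb-bh1*, *Hbb-bh2*, *Hbq1a* and *Hbq1b* had at most 6 counts in any library, and 0 of these 6 passed the filter on low counts. The surface proteins *Rhag* and *Kel* had 1 to 8 and 0 to 22 counts, and the skeleton protein *Epb42* had 0 to 13. The erythroid nuclear genes *Hemgn*, *Gata1* and *Klf1* had 0 to 10, 6 to 37 and 1 to 25 counts. These genes are shown because they were low. Others of the same lists that are not confined to red cells were higher, such as the transcription factors *Tal1* with 71 to 348 and *Lmo2* with 694 to 2302 counts, and *Alas2* had 463 to 1100 and *Hbb-bs* 1635 to 4681 counts.

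With traction in *Tem1*WT/WT mice, 3 of the 4 globin genes and *Alas2* were higher, by 2.05-fold to 2.78-fold, and the summed haemoglobin level of every stretched scar was above that of every sham scar. The sum of the 4 globin genes was 117, 109 and 97.3 CPM in the sham replicates 1 to 3 and 256, 226 and 212 CPM in the traction replicates. Of the 6 genes, 4 were called, all higher, where 9.15% of all genes tested were called and 5.61% were called higher. The sham and traction libraries did not overlap for any of the 6, against 35.7% of all genes tested. *Slc4a1* was the exception in direction, being lower with traction. In these bulk samples more red cells, more transcript per red cell and expression in other cell types cannot be told apart.

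**Figure D1:**
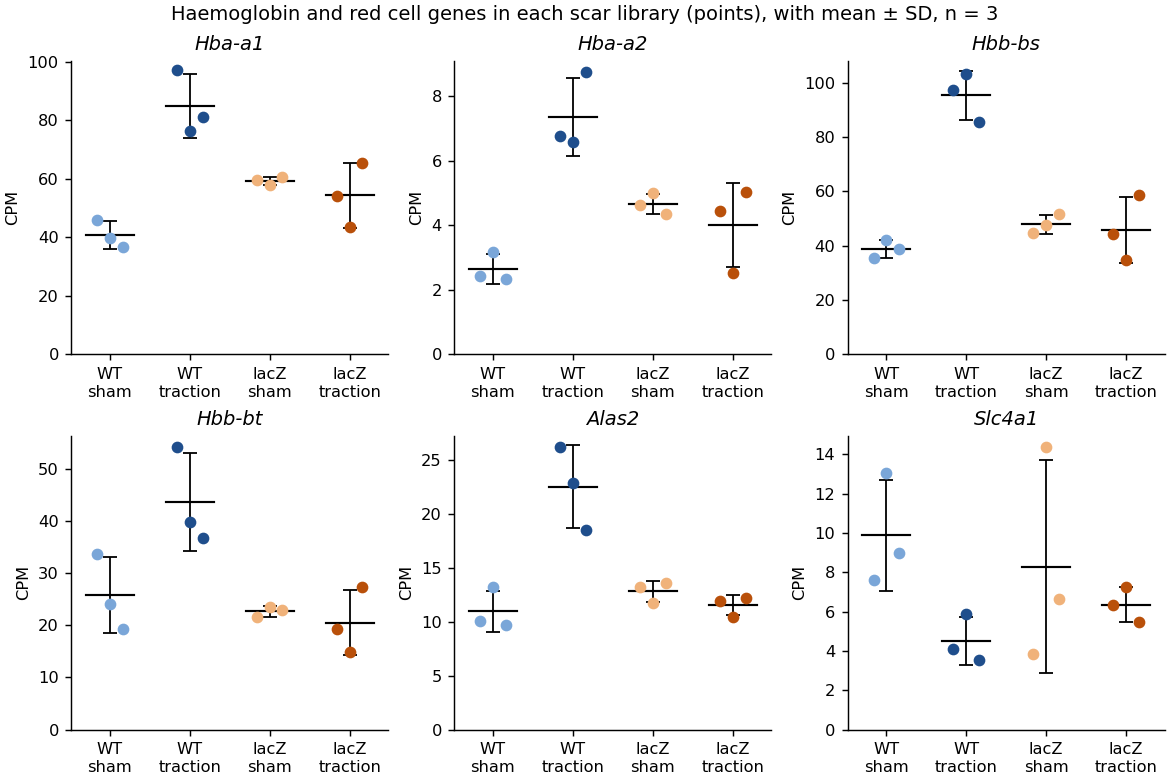
CPM (vertical axes, linear) of the 6 genes in the 3 libraries of each group, with points for libraries and bars for mean ± SD. The Tem1WT/WT traction points stand above all other points for Hba-a1, Hba-a2, Hbb-bs, Hbb-bt and Alas2, whereas for Slc4a1 the lowest point, 3.53 CPM, belongs to that group.

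*Hba-a1*, the main alpha globin transcript here, stood at 45.8, 39.9 and 36.7 CPM in the *Tem1*WT/WT sham libraries and at 97.2, 76.5 and 81.2 CPM with traction. It rose 2.08-fold (log2 fold change 1.06, SE 0.17, adjusted p = 0.0239). *Hba-a2*, the copy with few reads, went from 2.43, 3.16 and 2.34 CPM to 6.76, 6.58 and 8.75 CPM, a 2.78-fold rise (1.48, SE 0.27, adjusted p = 0.0263). Because the split between the copies is uncertain, their counts were also summed before the fit. The summed alpha globins rose 2.12-fold (1.09, SE 0.16, adjusted p = 0.0218).

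*Hbb-bs*, the main beta globin transcript, stood at 35.5, 41.99 and 38.9 CPM without traction and at 97.3, 103 and 85.6 CPM with it. Its rise, 2.46-fold, had the smallest adjusted p of the 6 genes (1.30, SE 0.18, adjusted p = 0.0184). *Hbb-bt* was at 33.7, 24.2 and 19.4 CPM and at 54.3, 39.9 and 36.7 CPM, so that the lowest traction library exceeded the highest sham library by little, and the difference was not called (0.76, SE 0.25, adjusted p = 0.0743). The summed beta globins rose 2.15-fold (1.11, SE 0.19, adjusted p = 0.0252), close to the value for the summed alpha globins.

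*Alas2* had 10.1, 13.2 and 9.68 CPM in the sham libraries and 26.2, 22.9 and 18.5 CPM in the traction libraries. It rose 2.05-fold (1.04, SE 0.18, adjusted p = 0.0252). Its neighbour *Apex2* stood at 8.44 to 11.01 CPM without and 9.97 to 11.5 CPM with traction, a log2 fold change of 0.12 (SE 0.19, adjusted p = 0.707).

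*Slc4a1* had 7.60, 13.1 and 8.99 CPM in the sham libraries and 4.09, 5.87 and 3.53 CPM with traction, so that all stretched scars held less of it than all sham scars. The log2 fold change was -1.14 (SE 0.42, adjusted p = 0.0948) and was not called. Across the 12 libraries the log2 level of *Slc4a1* had a Pearson r of -0.43 with the mean standardized profile of the 6 genes, whereas the other 5 had r of 0.864 to 0.963. These r include the gene itself in the mean, share the library scaling and are given as a description. By its pattern *Slc4a1* therefore did not follow the haemoglobin genes in these scars.

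**Figure D2:**
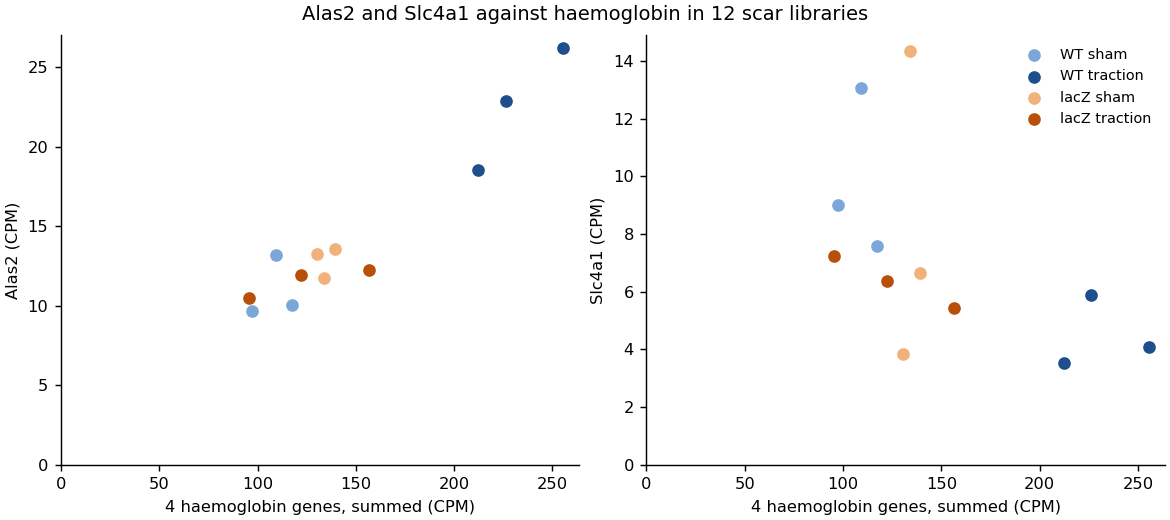
Summed CPM of the 4 haemoglobin genes (horizontal axes) against CPM of Alas2 (left) and Slc4a1 (right), linear axes, with a point for each of the 12 libraries coloured by group. The 3 Tem1WT/WT traction libraries, at 212 to 256 CPM of haemoglobin, stand apart at the high end of Alas2 (18.5 to 26.2 CPM), whereas 2 Tem1lacZ/lacZ libraries (3.86 and 5.45 CPM) lie within their range of Slc4a1 (3.53 to 5.87 CPM).

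The calls of these genes with traction in *Tem1*WT/WT mice depended on the libraries and on the test. Without *Tem1*WT/WT sham replicate 1, edgeR called 0 of 19308 genes tested, and without *Tem1*WT/WT sham replicate 2 it called 0 of 19411, and so 0 of the 6. The log2 fold changes of *Hbb-bs* were then 1.23 and 1.38. With the 6 *Tem1*WT/WT libraries alone the count was also 0, as it was for all 17762 genes tested. The edgeR adjusted p was then 0.0747 for *Hba-a1*, *Hba-a2* and *Hbb-bs* and 0.0761 for *Alas2*. DESeq2, in contrast, called 6 of 6 and 4047 of all 18853 genes.

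In *Tem1*lacZ/lacZ mice, 0 of the 6 genes were called with traction, and the values of sham and traction libraries overlapped for all 6. The summed globin level was 130.4, 134 and 139 CPM in the sham libraries and 122, 95.6 and 157 CPM in the traction libraries. The 3 sham libraries lay close together, and the traction libraries lay on both sides of them. By edgeR 0% of all genes were called in this comparison and 8.12% had an unadjusted p under 0.05, and 12.9% of all genes did not overlap between the groups. Of the 6 genes, 0 had an unadjusted p under 0.05. DESeq2 and limma-voom also called 0 of the 6, where they called 28 and 377 of all 18853 genes.

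*Hba-a1* had 59.7, 57.8 and 60.5 CPM in the *Tem1*lacZ/lacZ sham libraries and 53.99, 43.5 and 65.6 CPM with traction (log2 fold change -0.13, SE 0.16, adjusted p = 0.844). *Hba-a2* had 4.64, 4.98 and 4.36 CPM and then 4.44, 2.54 and 5.02 CPM (-0.22, SE 0.27, adjusted p = 0.830). For both alpha copies, replicate 2 was the lowest traction library and replicate 3 the highest. *Hbb-bs* had 44.5, 47.5 and 51.6 CPM and then 44.5, 34.6 and 58.8 CPM (-0.06, SE 0.18, adjusted p = 0.941). *Hbb-bt* had 21.6, 23.6 and 22.9 CPM and then 19.3, 14.9 and 27.3 CPM (-0.14, SE 0.25, adjusted p = 0.889). The beta globins thus had the same order of libraries as the alpha globins. With the copies summed, the alpha globins had -0.13 (SE 0.16, adjusted p = 0.833) and the beta globins -0.09 (SE 0.19, adjusted p = 0.911).

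*Alas2* had 13.2, 11.7 and 13.6 CPM in the *Tem1*lacZ/lacZ sham libraries and 11.9, 10.5 and 12.2 CPM with traction (-0.16, SE 0.18, adjusted p = 0.821). *Slc4a1* ranged widely in the sham libraries, with 3.86, 14.4 and 6.66 CPM, and lay at 6.36, 7.25 and 5.45 CPM with traction (-0.38, SE 0.41, adjusted p = 0.808). The sham values of *Slc4a1* had an SD of 5.44 CPM around a mean of 8.29 CPM (n = 3), and its traction values lay within their range.

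Under traction, all *Tem1*lacZ/lacZ libraries lay below all *Tem1*WT/WT libraries for the globins and *Alas2*, but 0 of the 6 genes were called by edgeR. Of all genes tested, 13.7% lay lower without overlap in this way, and 26.6% did not overlap in either direction. In this comparison 0.106% of all genes were called, and 26.1% had an unadjusted p under 0.05, as 5 of the 6 genes had. The log2 fold change was -0.64 for *Hba-a1* (SE 0.16, adjusted p = 0.0951), -0.88 for *Hba-a2* (SE 0.27, adjusted p = 0.0994), -1.05 for *Hbb-bs* (SE 0.18, adjusted p = 0.0644), -1.09 for *Hbb-bt* (SE 0.26, adjusted p = 0.0891) and -0.96 for *Alas2* (SE 0.18, adjusted p = 0.0808). *Slc4a1* overlapped between the genotypes (0.50, SE 0.42, adjusted p = 0.464). The summed copies did not overlap either, with -0.66 (SE 0.16, adjusted p = 0.0922) for the alpha and -1.06 (SE 0.19, adjusted p = 0.0702) for the beta globins. DESeq2 called 5 of the 6 genes, the same 5 that did not overlap, and 2334 of all 18853 genes. Without *Tem1*WT/WT traction replicate 2, edgeR called 4 of the 6 and 1421 of 19400 genes.

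Without traction, 0 of the 6 genes were called between the genotypes by edgeR. DESeq2 also called 0 of the 6, where it called 43 of all 18853 genes. All *Tem1*lacZ/lacZ sham libraries were above all *Tem1*WT/WT sham libraries for *Hba-a1*, *Hba-a2* and *Hbb-bs*, which makes 3 of 6, where 13% of all genes lay higher without overlap and 26.8% did not overlap in either direction. In this comparison edgeR called 0.0106% of all genes, and 11.7% had an unadjusted p under 0.05. The log2 fold change was 0.54 for *Hba-a1* (SE 0.16, adjusted p = 0.409, edgeR) and 0.82 for *Hba-a2* (SE 0.27, adjusted p = 0.409, edgeR), and these were the 2 genes with an unadjusted p under 0.05. It was 0.30 for *Hbb-bs*, -0.18 for *Hbb-bt*, 0.23 for *Alas2* and -0.25 for *Slc4a1*, with adjusted p of 0.505 to 0.824. The summed alpha globins, at 39.1 to 48.3 CPM in *Tem1*WT/WT and 62.8 to 64.9 CPM in *Tem1*lacZ/lacZ sham libraries, did not overlap (0.56, SE 0.16, adjusted p = 0.410). The summed beta globins did, at 58.3 to 69.2 CPM and 66.1 to 74.4 CPM (0.13, SE 0.19, adjusted p = 0.802), so the separation of *Hbb-bs* was not seen in the sum of both beta copies.

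**Figure D3:**
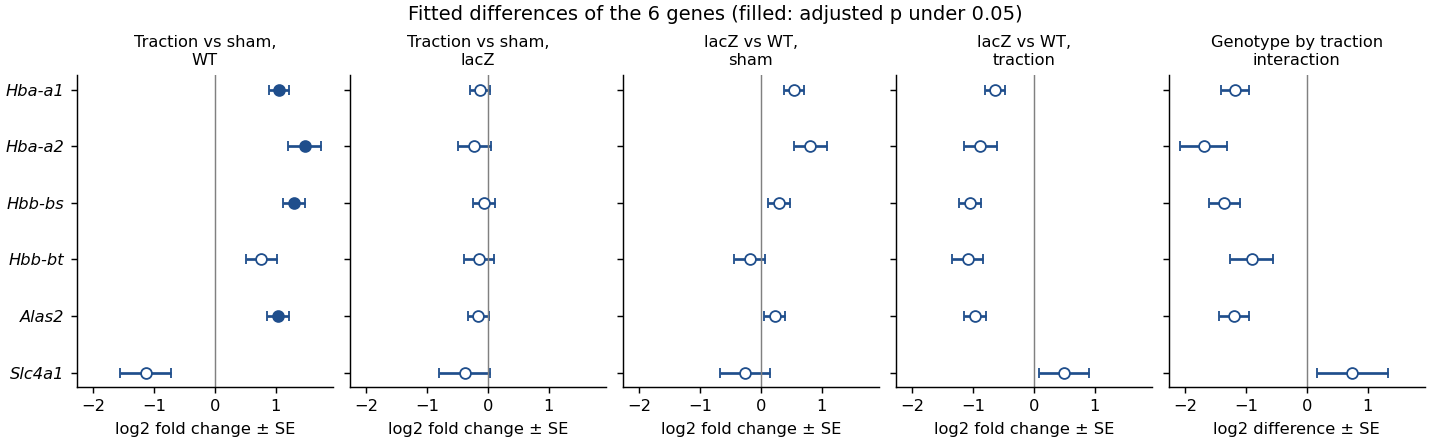
Log2 fold change ± SE (horizontal axes) of the 6 genes from the edgeR model, with a panel for each of the 4 comparisons and for the interaction. Filled points had an adjusted p under 0.05, and all 4 of them are in the panel of traction against sham in Tem1WT/WT mice, where Slc4a1 at -1.14 is the only point left of 0.

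Whether traction acted differently in the 2 genotypes was tested by the interaction term. The traction effect in *Tem1*lacZ/lacZ minus that in *Tem1*WT/WT was -1.18 (SE 0.23) for *Hba-a1*, -1.70 (SE 0.38) for *Hba-a2*, -1.36 (SE 0.25) for *Hbb-bs*, -0.90 (SE 0.36) for *Hbb-bt*, -1.19 (SE 0.25) for *Alas2* and 0.75 (SE 0.59) for *Slc4a1*, all on the log2 scale. By edgeR 0 of the 6 were called, as were 0% of all genes. The unadjusted p was under 0.05 for 5 of the 6 genes, from 0.000229 for *Hbb-bs* to 0.0278 for *Hbb-bt*, against 8.91% of all genes, yet the adjusted p of all 5 was 0.548, which was the smallest of any gene. The interaction of the summed copies was -1.22 (SE 0.23) for the alpha and -1.19 (SE 0.26) for the beta globins, each with an adjusted p of 0.549. DESeq2 called 4 of the 6, namely *Hba-a1*, *Hba-a2*, *Hbb-bs* and *Alas2*, and 69 of all 18853 genes. A difference of the traction effect between genotypes was therefore not shown with edgeR after adjustment over all genes. The test for any difference among the 4 groups called 5 of the 6 genes where 10.9% of all genes were called, with adjusted p of 0.0176 to 0.0449, and not *Slc4a1* (adjusted p = 0.220). Without *Tem1*lacZ/lacZ sham replicate 2 it called 0 of the 6 and only 29 of all 19368 genes. Without replicate 3 of that group it called 0 of the 6 and only 30 of all 19366 genes.

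The order of the groups was the same for *Hba-a1*, *Hba-a2*, *Hbb-bs* and *Alas2*. Each was highest in *Tem1*WT/WT scars with traction, with means of 85.0, 7.36, 95.4 and 22.5 CPM. The *Tem1*lacZ/lacZ sham group came next (59.3, 4.66, 47.9 and 12.8 CPM), then the *Tem1*lacZ/lacZ traction group (54.4, 3.996, 45.9 and 11.5 CPM) and last the *Tem1*WT/WT sham group (40.8, 2.65, 38.8 and 10.97 CPM). The 2 *Tem1*lacZ/lacZ groups, which are neighbours in this order, overlapped for all 4 genes. So did the *Tem1*lacZ/lacZ traction and *Tem1*WT/WT sham groups, and for *Alas2* the 2 sham groups overlapped as well. The order of the 3 lower groups is therefore one of means only. *Hbb-bt* had the order 43.6, 25.7, 22.7 and 20.5 CPM with the *Tem1*WT/WT sham group in second place, and the 3 lower groups overlapped. *Slc4a1* was highest in *Tem1*WT/WT sham scars (9.88 ± 2.84 CPM, SD, n = 3) and lowest in *Tem1*WT/WT traction scars (4.50 ± 1.22 CPM, SD, n = 3).

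The ratio of alpha to beta globin counts separated the genotypes. It does not depend on the library totals, on the scaling or on the split of reads between copies, although reads left out of counting because they fit both copies would be missing from it. The ratio was 0.697, 0.652 and 0.671 in the *Tem1*WT/WT sham libraries and 0.686, 0.580 and 0.736 in the *Tem1*WT/WT traction libraries. It was 0.974, 0.883 and 0.872 in the *Tem1*lacZ/lacZ sham libraries and 0.915, 0.930 and 0.821 in the *Tem1*lacZ/lacZ traction libraries. Every *Tem1*lacZ/lacZ library was above every *Tem1*WT/WT library. The means were 0.673 ± 0.023, 0.667 ± 0.079, 0.909 ± 0.056 and 0.889 ± 0.059 (SD, n = 3 each) in the same order of groups. The ratio was 1.34-fold higher in the 6 *Tem1*lacZ/lacZ than in the 6 *Tem1*WT/WT libraries (log2 difference 0.43, exact permutation p = 0.00216, two-sided, adjusted p = 0.00866 over 4 comparisons). This p is the lowest possible with 924 splits. The 6 libraries of a genotype contain both treatments. Within a treatment, 3 against 3 libraries cannot give an exact p below 0.1.

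The ratio did not separate the treatments. The 6 traction and 6 sham libraries differed by -0.03 on the log2 scale (exact permutation p = 0.857, adjusted p = 0.857). The share of haemoglobin in the library counts was 1.30-fold higher with traction over both genotypes (log2 difference 0.38, exact permutation p = 0.0909, adjusted p = 0.182), and 0.848 times as high in *Tem1*lacZ/lacZ as in *Tem1*WT/WT libraries (-0.24, exact permutation p = 0.299, adjusted p = 0.398). Each of these 3 adjusted p is over the same 4 comparisons and none passed. With *Hba-a1* and *Hbb-bs* alone in place of the summed copies, the genotype difference of the ratio was 0.33 (adjusted p = 0.0519), which ends the call.

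**Figure D4:**
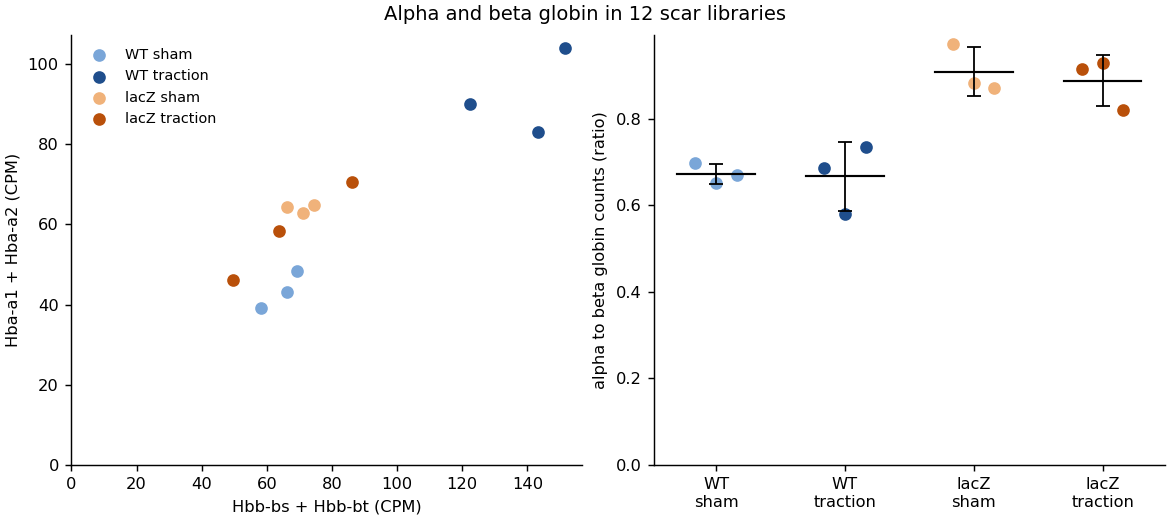
Left, summed CPM of the alpha globins against that of the beta globins in the 12 libraries, coloured by group. Right, the ratio of alpha to beta globin counts in each library (points) with mean ± SD (bars), where the Tem1WT/WT libraries lie at 0.580 to 0.736 and the Tem1lacZ/lacZ libraries at 0.821 to 0.974.

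The levels of alpha globin, beta globin, *Alas2* and *Slc4a1* were also compared across libraries. Because the *Tem1*WT/WT traction libraries stood apart, correlations were computed on log2 CPM over the other 9 libraries, for 6 pairs. Summed alpha and beta globins had a Pearson r of 0.69 (exact permutation p = 0.0301, adjusted p = 0.180) and a Spearman rho of 0.73 (exact permutation p = 0.0311, adjusted p = 0.171), and r was 0.78 without the 2 libraries farthest from the median of alpha globin. Alpha globin and *Alas2* had r of 0.62 (exact permutation p = 0.0811, adjusted p = 0.243) and rho of 0.63 (exact permutation p = 0.0760, adjusted p = 0.171), and r of 0.85 without those 2. *Slc4a1* had r of -0.46, -0.11 and -0.19 with alpha globin, beta globin and *Alas2* (adjusted exact permutation p of 0.321 to 0.786). None of the 6 pairs passed after adjustment, and all share the scaling of the library. These r mix differences between groups with those within them, and the permutations took no account of the groups. With group means removed over all 12 libraries, r was 0.87 for alpha and beta globin. It was 0.42 for alpha globin and *Alas2* and 0.54 for beta globin and *Alas2*. *Slc4a1* then had -0.32, -0.02 and 0.04 with alpha globin, beta globin and *Alas2*.

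Genes of the same pathway were then examined, grouped by role. Counts of called genes are to be read against the 9.15% of all genes that were called with traction in *Tem1*WT/WT scars and the 0% in *Tem1*lacZ/lacZ scars. All of them became 0 without *Tem1*WT/WT sham replicate 1 or replicate 2, where 0 of 19308 and 0 of 19411 genes were called. Of the 13 other genes of haem synthesis and iron supply, 0 were called in *Tem1*WT/WT scars with traction, with a median log2 fold change of 0.00 where all genes had -0.01. *Alas1*, the housekeeping form of the first enzyme, had a mean of 79.7 CPM in sham and 109 CPM in traction scars (0.46, SE 0.48, adjusted p = 0.545). *Fech*, which inserts iron into the ring, had 82.4 and 75.0 CPM (-0.14, SE 0.12, adjusted p = 0.480), and *Cpox*, an earlier enzyme, had 50.97 and 51.9 CPM (0.03, SE 0.15, adjusted p = 0.928). *Tfrc*, the transferrin receptor, had 83.3 and 53.7 CPM (-0.63, SE 0.29, adjusted p = 0.166). *Alas2* was thus the haem synthesis gene that was called, and the summed level of the other 13 lay between 485 and 558 CPM in sham and between 466 and 621 CPM in traction libraries.

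Of the 16 red cell membrane genes listed, 12 were tested and 0 were called in this comparison. Their median log2 fold change was -0.03, with 6 positive and 6 negative. *Aqp1*, a water channel that vessels also carry, had 163 and 289 CPM (0.82, SE 0.35, adjusted p = 0.138), and *Epb41*, a skeleton protein, 103 and 97.0 CPM (-0.09, SE 0.16, adjusted p = 0.740). *Sptb*, the beta spectrin, had 19.9 and 5.92 CPM (-1.75, SE 0.69, adjusted p = 0.114), and *Gypc*, glycophorin C, 13.2 and 19.8 CPM (0.58, SE 0.32, adjusted p = 0.235). Of the 15 genes of the red cell cytosol and of maturation, 11 were tested and 0 were called, with a median of -0.04. *Prdx2*, a peroxidase abundant in red cells, had 181 and 176 CPM, and *Bnip3l*, which clears mitochondria from young red cells, 232 and 219 CPM. *Xpo7* (0.13) and *Bsg* (0.50, adjusted p = 0.0791) were not called either.

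The list of erythroid transcription factors, which includes the erythropoietin receptor, had 12 genes, all tested, of which 2 were called against 9.15% of all genes. *Nfe2*, a factor of red cells and platelets, rose from a mean of 1.03 to 7.49 CPM (2.86, SE 0.76, adjusted p = 0.0439), with 17.8 CPM in traction replicate 1 and 2.98 and 1.68 CPM in the others. Without that library it had 1.16 (adjusted p = 0.124). *Bcl11a*, which silences fetal globin in humans, fell from 18.9 to 10.1 CPM (-0.91, SE 0.23, adjusted p = 0.0382). Without *Tem1*WT/WT traction replicate 1, 0 of the list were called, and without replicate 3 of that group or *Tem1*WT/WT sham replicate 3 it was 1. Of all genes, 360 of 19388, 704 of 19430 and 820 of 19436 were then called. Both genes were named after their values were seen. The more abundant factors *Zbtb7a* (0.15), *Ldb1* (0.07), *Lmo2* (-0.15) and *Zfpm1* (0.43) were not called, and neither were *Gata1* (0.00), *Klf1* (-0.69) and *Tal1* (0.85).

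Some of the genes that clear haemoglobin and break down haem were higher in the same libraries. Of 19 tested, 6 were called, all higher, with a median of 0.43 and 17 positive values, where 9.15% of all genes were called and 5.61% were called higher. Without *Tem1*WT/WT traction replicate 1, or without *Tem1*WT/WT sham replicate 3, 1 of the 19 was called, namely *Hmox1*. Of all genes, 360 of 19388 and 820 of 19436 were then called. In *Tem1*lacZ/lacZ scars 0 of the 19 were called, as were 0% of all genes. *Hmox1*, the inducible enzyme that opens the haem ring, went from 149 to 687 CPM in *Tem1*WT/WT scars (2.20, SE 0.31, adjusted p = 0.0184) and from 179 to 213 CPM in *Tem1*lacZ/lacZ scars (0.25, adjusted p = 0.825). The ferritin genes *Fth1* and *Ftl1*, which store iron, rose by 2.80 (SE 0.69, adjusted p = 0.0378) and 0.98 (SE 0.26, adjusted p = 0.0432) in *Tem1*WT/WT scars. *Fth1* stood at 7666 CPM in traction replicate 1 and at 1225 and 998 CPM in the others, all above the sham range of 379 to 523 CPM, and without replicate 1 its value was 1.22 (adjusted p = 0.0570). *Lrp1*, the receptor of the haem and haemopexin complex among many ligands, rose by 1.45 (SE 0.40, adjusted p = 0.0468). In *Tem1*lacZ/lacZ scars it had 1.29 (SE 0.40, adjusted p = 0.598), and its interaction was -0.16 (SE 0.55, adjusted p = 0.950). *Spic* (1.76) and *Bach1* (0.57), transcription factors that respond to haem, were the others called, and both were named after their values were seen. *Hp*, haptoglobin, which binds free haemoglobin, had a mean of 211 CPM in sham and 1105 CPM in traction scars, the latter with an SD of 1563 CPM (n = 3), and was not called (2.39, SE 1.13, adjusted p = 0.174). *Cd163*, the receptor for haptoglobin with haemoglobin, named although it was not among the most abundant, had 111 and 109.9 CPM (-0.01, SE 0.45, adjusted p = 0.991).

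**Figure D5:**
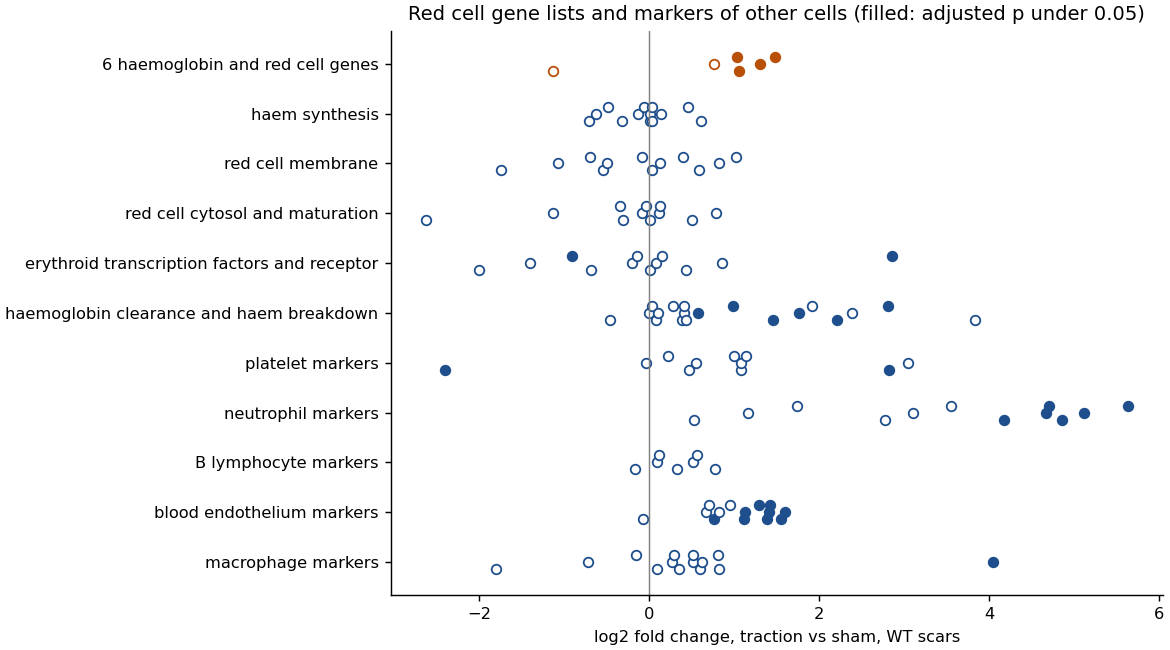
Log2 fold change of traction against sham in Tem1WT/WT scars (horizontal axis) for the tested genes of each list (rows), filled where the adjusted p was under 0.05. The haem synthesis, red cell membrane and red cell cytosol lists spread on both sides of 0 with 0 filled points, whereas the neutrophil and blood endothelium lists lie mostly to the right, with 6 and 9 filled points.

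Markers of other cells moved in the same libraries, and their part in the haemoglobin result was not tested. In *Tem1*WT/WT scars with traction 9 of 14 blood endothelium markers were called, each of them higher, where 5.61% of all genes were called higher, and the sum of the 14 was 491 to 683 CPM in sham and 1229 to 1393 CPM in traction libraries. Among them *Pecam1* (1.11, SE 0.23, adjusted p = 0.0301), *Cdh5* (1.60, SE 0.34, adjusted p = 0.0317) and *Plvap* (1.41, SE 0.27, adjusted p = 0.0278) rose, whereas *Tek* had -0.08 (adjusted p = 0.898). The endothelium sum was 379 to 632 CPM in sham and 552 to 937 CPM in traction libraries of *Tem1*lacZ/lacZ mice, where 0 of 14 were called. Without *Tem1*WT/WT traction replicate 1 or replicate 3, 4 and 5 of the 14 were called, where 360 of 19388 and 704 of 19430 genes were called. Of 12 tested neutrophil markers 6 were called, all higher, with sums of 134 to 142 CPM in sham and 466 to 7855 CPM in traction libraries of *Tem1*WT/WT mice. The sums were 227 to 238 CPM and 296 to 583 CPM in *Tem1*lacZ/lacZ mice, where 0 of the 12 were called, as were 0% of all genes. The highest neutrophil sum belonged to *Tem1*WT/WT traction replicate 1. Without that library 2 neutrophil markers and 360 of 19388 genes were called, and without *Tem1*WT/WT sham replicate 3 there were 3 and 820 of 19436.

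Of 11 tested platelet markers 2 were called in *Tem1*WT/WT scars, *Ppbp* higher (2.81, adjusted p = 0.0396) and *Gp5* lower (-2.40, adjusted p = 0.0277), where 9.15% of all genes were called. Both were named after their values were seen, and both had few counts. *Gp5* had 29 to 42 counts in *Tem1*WT/WT sham and 2 to 7 in *Tem1*WT/WT traction libraries. *Ppbp* had 12 to 66 and 134 to 287 counts in the same groups. *Gp9* had at most 10 counts in any library. The more abundant *Pf4*, which macrophages also make, had 29.3 and 58.6 CPM (1.00, SE 0.32, adjusted p = 0.0671), and *Itga2b* 5.07 and 5.91 CPM (0.22, adjusted p = 0.622). Without any 1 of the *Tem1*WT/WT traction libraries 1 platelet marker was called. Without replicates 1, 2 and 3 in turn, 360 of 19388, 2861 of 19400 and 704 of 19430 genes were called. The platelet sum was 67.3 to 110.3 CPM in sham and 139.9 to 194 CPM in traction libraries. Of 7 tested B lymphocyte markers 0 were called, with sums of 7.12 to 10.8 CPM and 9.87 to 14.9 CPM, and *Pax5* had at most 13 counts. Of 14 macrophage markers 1 was called, *Cd14*, which was named for that reason (4.04, SE 0.95, adjusted p = 0.0349). It stood at 979, 55.9 and 93.7 CPM in the traction replicates 1 to 3 and had 1.69 (adjusted p = 0.0523) without replicate 1. The macrophage sums were 2681 to 4494 CPM and 4322 to 5521 CPM.

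The genes whose pattern over the 12 libraries was most like the mean standardized profile of the 6 genes were found among the 13640 genes whose log2 CPM averaged 1 or more. The 10 most alike were *Pgf*, a growth factor of the VEGF family (r = 0.881), *Pisd* (0.879), *Tmed10* (0.868), *Mob3a* (0.866), *Cln3* (0.857), *Tmed2* (0.854), *Hmox1* (0.852), *Golph3* (0.850), *Nufip1* (0.850) and *Bcl10* (0.848). All 10 were positive with traction in *Tem1*WT/WT scars, from 0.31 for *Tmed10* and *Pisd* to 2.20 for *Hmox1*, and 9 of the 10 had negative values in *Tem1*lacZ/lacZ scars, from -0.01 for *Cln3* to -0.43 for *Pgf*, whereas *Hmox1* had 0.25. The r describe the 12 libraries, which include 3 *Tem1*WT/WT traction libraries that stand apart, and no p was computed for them.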

How the data were processed

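RNA-seq counts of 12 mouse scar libraries were analysed, from 3 mice for each combination of genotype (*Tem1*WT/WT or *Tem1*lacZ/lacZ) and treatment (sham or traction), grouped by the sample labels. The authors trimmed paired reads of 150 bases with fastp 0.20.0, aligned them to GRCm38 with HISAT2 2.1.0, counted them on genes with featureCounts 2.0.0 and deposited the whole-number counts per gene without normalization. The annotation, strand setting and handling of reads with several matches are not given in the sources used here. Library totals were 41536788 to 64644293 counts.

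Genes were filtered with filterByExpr, normalized by TMM and fitted with edgeR 4.0.16 (robust quasi-likelihood, R 4.3.3) in 1 model of the 4 groups which left 8 residual degrees of freedom. All tests are two-sided, and p was adjusted by Benjamini-Hochberg over all 18853 genes tested. Log2 CPM used a prior count of 2. Ratios and shares were compared by exact permutation of libraries. Gene positions came from GENCODE vM21 and promoters from RefSeq (GRCm38.p6), in which 5 of the 6 genes were matched by symbol. Scripts were tested on simulated data, and figures were drawn with matplotlib 3.10.9 in Python 3.11.15.

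The genes and the 11 lists were chosen with earlier results of these data known. By the rule for naming genes, the 6 genes, up to 4 of the most abundant tested genes of each list, *Cd248* and the 10 genes with the most similar profile were named, and erythroid genes at or near 0 could be. *Tal1*, *Nfe2*, *Bcl11a*, *Cd163*, *Spic*, *Bach1*, *Ppbp*, *Gp5*, *Gp9*, *Pax5* and *Cd14* were added with their values in view. Alternatives tried were DESeq2 size factors, upper quartile or no scaling, 2 other count filters, DESeq2 1.42.0, limma-voom (limma 3.58.1), a replicate block, a fit without the robust option, the 6 compared libraries alone, copies summed, medians, and each library left out. Labels give no litter or batch, and each mouse was 1 library.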

Additional observations from a re-analysis of the deposited data

Results flagged for a closer look

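*Alas2* was singled out because every traction library stood above the sham mean in *Tem1*WT/WT mice and below it in *Tem1*lacZ/lacZ mice. The 3 *Tem1*WT/WT traction libraries stood 0.77 to 1.26 above the mean of the *Tem1*WT/WT sham libraries on the log2 scale, and the 3 *Tem1*lacZ/lacZ traction libraries stood below that of their own sham libraries, at -0.07 to -0.29. Within *Tem1*lacZ/lacZ mice the sham and traction libraries overlapped, and the difference was not called (-0.16, SE 0.18, edgeR adjusted p = 0.821). A fall of *Alas2* with traction in these mice was thus not shown. The interaction was -1.19 (SE 0.25, edgeR adjusted p = 0.548), so the difference between genotypes did not pass after adjustment over all genes.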

How the results depend on the processing

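The sizes of the differences in *Tem1*WT/WT scars with traction kept their direction in all 22 alternatives for each of the 6 genes, with log2 fold changes of 1.09 to 1.38 for *Hbb-bs* and 0.82 to 1.21 for *Alas2*, but the calls did not all hold. The number of the 6 genes called in this comparison was 4 and ranged from 0 to 4 when each library was left out, being 0 without *Tem1*WT/WT sham replicate 1 or 2. It was 0 with only the 6 libraries compared and 6 with DESeq2. For *Tem1*lacZ/lacZ against *Tem1*WT/WT with traction it was 0, 5 with DESeq2 (2334 of all 18853 genes called) and 0 to 4 with a library left out. The 4 came without *Tem1*WT/WT traction replicate 2 (1421 of all 19400 genes called). For the interaction it was 0, and 4 with DESeq2 (69 of 18853 genes). For any difference among the 4 groups it was 5, 3 with library totals unscaled (1133 of 18853 genes) and 3 with the replicate block (1235 of 18853 genes). With a library left out it was 0 to 5. With copies summed, which leaves 4 items, it was 3, all but *Slc4a1*. The genotype difference of the alpha to beta ratio fell short with medians (0.41, adjusted p = 0.0519) and with *Hba-a1* over *Hbb-bs* (0.33, adjusted p = 0.0519), and was 0.38 to 0.45 with a library left out. The traction difference of that ratio, -0.03, was -0.082 to 0.054 with a library left out. The traction difference of the haemoglobin share, 0.38, was 0.29 to 0.51 with a library left out, and 0.51 passed without *Tem1*lacZ/lacZ traction replicate 2 (exact permutation, adjusted p = 0.0433). With a library left out, differences near 0 changed sign in some cases. For traction in *Tem1*lacZ/lacZ scars the ranges were -0.29 to 0.013 for *Hba-a1*, -0.43 to 0.021 for *Hba-a2*, -0.28 to 0.11 for *Hbb-bs*, -0.41 to 0.042 for *Hbb-bt* and -0.69 to 0.30 for *Slc4a1*, and for genotype in sham scars they were -0.34 to 0.059 for *Hbb-bt* and -0.93 to 0.062 for *Slc4a1*. The cause was not tested. With library totals unscaled the median of all genes in *Tem1*WT/WT scars with traction was -0.22, and with upper quartile scaling -0.12, so that a log2 fold change under these settings is relative to those values. DESeq2 called 4047 genes in that comparison, edgeR 1725, limma-voom 735 and the filter of at least 1 count 1011.

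Libraries that carry the same number in different groups are not from the same mouse. The deviations from the group means had a correlation over 0.1 in 8 of 18 such pairs (median 0.08, -0.34 to 0.30). Among pairs with different numbers in different groups it was over 0.1 in 6 of 36 (median -0.05, -0.43 to 0.43). The reason was not tested. With the replicate number as a block the count was still 4 for traction in *Tem1*WT/WT scars and 0 for the other comparisons between groups, and the exact permutation test of the alpha to beta ratio between genotypes gave an adjusted p of 0.0370. Depth limits *Hba-a2* most, with 112 to 426 counts in a library, and the other globins with 0 to 6 counts could not be compared.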

Other observations

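*Slc4a1*, which did not follow the haemoglobin genes, was compared with all 13640 candidates on its own, a choice made after its values were seen. The 5 genes with the most similar log2 CPM over the 12 libraries were *Krtap10-10* (r = 0.959), *Krt25* (0.953), *Krtap16-1* (0.951), *Krt75* (0.948) and *Gm19402* (0.948). Of these, *Krtap10-10* and *Krtap16-1* are keratin-associated proteins of the hair shaft and *Krt25* and *Krt75* are keratins of the hair follicle. Their log2 fold changes with traction in *Tem1*WT/WT scars were -2.09, -1.79, -2.39, -1.56 and -2.20 in the same order, with adjusted p of 0.0572 to 0.0809 by edgeR, and *Slc4a1* had -1.14. Against the mean profile of the 4 haemoglobin genes and *Alas2* alone, the 5 most similar genes were *Mob3a* (0.911), *Tmed10* (0.906), *Igfbp7* (0.900), *Tmed2* (0.896) and *Cln3* (0.889), 4 of which were also among the 10 named above. These r were picked as the highest of many and are given with no p.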
